A study of Oryza sativa with 4 samples.

Results

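The Calvin cycle and the photorespiratory pathway were followed through 67 gene models, chosen because the deposited annotation assigns them one of 21 KEGG orthology identifiers (KO), each of which stands for 1 enzyme or enzyme subunit. There were 40 Calvin cycle and 27 photorespiration models among the 55986 gene models counted, 12299 of which carry a KO. The choice used no expression value. Enzyme names below are those of the KO, and a locus identifier such as LOC_Os02g47020 carries its chromosome number after "Os".

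RNA was sequenced from 7-day-old japonica rice seedlings of the T-DNA insertion mutant mre11 and of the wild type (WT), variety Dongjin, with 2 samples per genotype and 3 plants pooled in each sample. Mre11 is a nuclease that acts with Rad50 and Nbs1 on broken DNA ends. The mutant is a single insertion line, and whole seedlings were harvested, so that fewer cells of a type and less RNA per cell cannot be told apart in any value below. The libraries held 19004825 and 17170661 counts in mre11 and 12753324 and 16460543 counts in WT. As a check of the labels, Mre11 itself (LOC_Os04g54340) had 132 and 118 counts in mre11, against 306 and 471 counts in WT, a log2 fold change of -2.09 ± 0.19 (SE, n = 2 per genotype, edgeR adjusted p = 0.00141).

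In the Calvin cycle, Rubisco fixes CO2 onto ribulose 1,5-bisphosphate in the chloroplast stroma, phosphoglycerate kinase and glyceraldehyde 3-phosphate dehydrogenase (GAPDH) reduce the product to triose phosphate, and a set of aldolase, phosphatase, transketolase and isomerase reactions rebuilds the acceptor, which phosphoribulokinase completes. When Rubisco takes up O2 instead, phosphoglycolate is formed and is salvaged by photorespiration, which runs through chloroplast, peroxisome and mitochondrion and back. Rice fixes carbon by the C3 route, in which photorespiration carries a large flux in leaves, and several Calvin cycle enzymes have relatives with the same KO that serve glycolysis or the pentose phosphate pathway.

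Of the 67 members, 60 had enough counts to be tested. Of the 7 others, 4 had 0 counts in every library, and the remaining 3 had at most 7 counts in any library. A gene was called higher or lower when its adjusted p was under 0.05 and the difference at least 2-fold. Among the 60 tested members, 8 (13.3%) were called higher and 7 (11.7%) lower in mre11, against 12.0% and 9.31% of all 24470 tested genes. In this fit the members together were thus called about as often as genes at large. With no fold threshold, 12 members were higher and 9 lower, 20.0% and 15.0%, beside 18.8% and 18.3% of all tested genes. Both mre11 libraries lay above both WT libraries for 23 of the 60 members (38.3%) and below them for 15, beside 37.5% and 35.7% of all tested genes. The median log2 fold change of the members was 0.14, and that of all tested genes 0.03. Over all genes, 2930 were called higher and 2277 lower with TMM scaling, and 3795 higher and 1711 lower with library size alone. With the replicate number as a block in the fit, 12 members were called higher and 7 lower, beside 2736 and 2231 of all tested genes. In that fit a larger share of the members than of all genes was called higher. One member called higher, LOC_Os07g42430, passed the filter on low counts only through the mre11 libraries. With 2 libraries per genotype an exact two-sided permutation test of a single value cannot give a p below 0.333, so the p-values quoted are those of the edgeR fit across all genes.

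**Figure D1:**
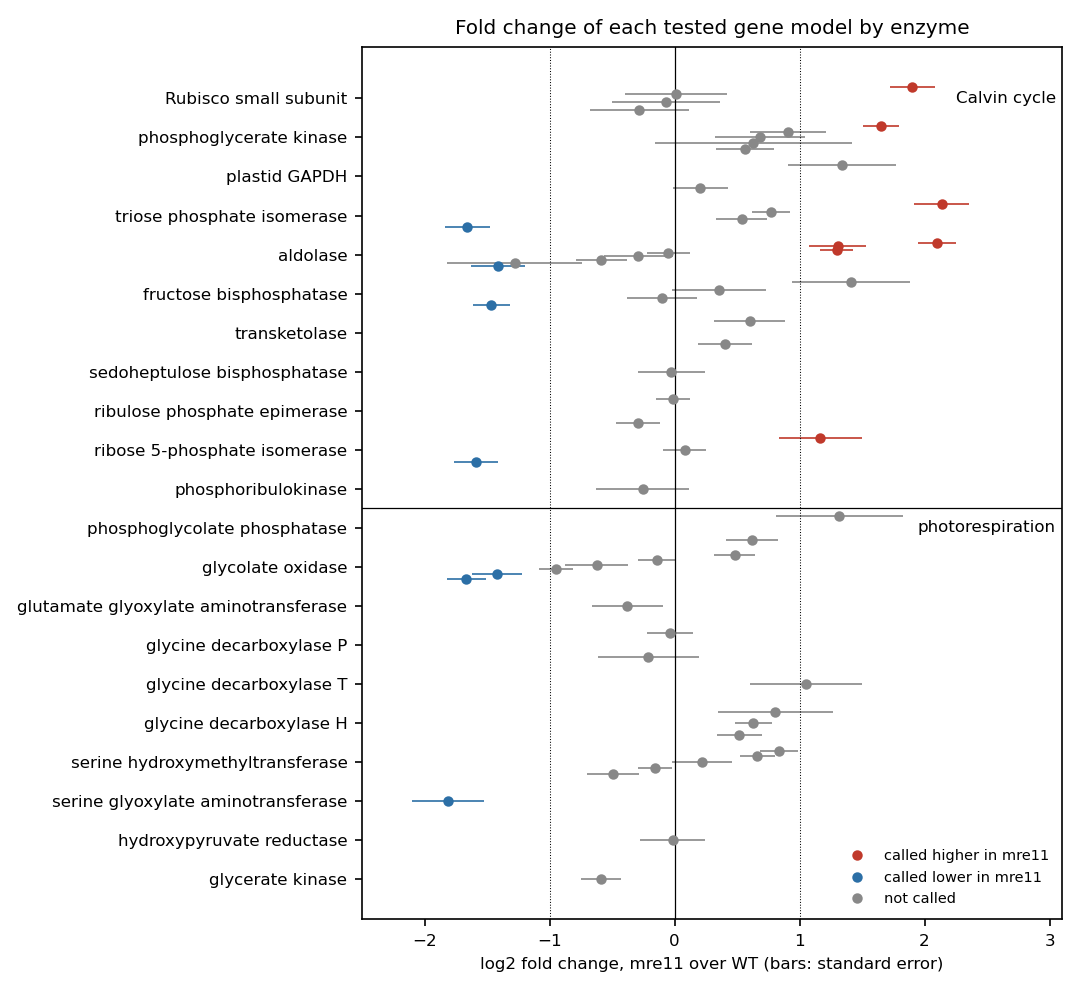
Log2 fold change (mre11 over WT, horizontal axis) of each tested gene model, grouped by enzyme on the vertical axis, with bars of 1 standard error; LOC_Os07g42430, which has 0 counts in WT, is left out. Called members lie on both sides of 0 within aldolase, triose phosphate isomerase and ribose 5-phosphate isomerase, whereas the called lower members of photorespiration are in glycolate oxidase and serine glyoxylate aminotransferase.

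The calls are given next by step, to be read beside the 12.0% higher and 9.31% lower of all tested genes. The 9 models of the Calvin-cycle-only steps (Rubisco small subunit, plastid GAPDH, sedoheptulose bisphosphatase and phosphoribulokinase) had 1 called higher (12.5%) and 0 called lower of 8 tested, with a median log2 fold change of -0.01. No member of these steps was lower by DESeq2, by limma on the RPKM values or at an unadjusted p under 0.05 in edgeR (0 of 8 each), but the Rubisco small subunit model LOC_Os12g17600 was called lower without mre11 replicate 2. The 31 models of the steps shared with glycolysis or the pentose phosphate pathway had 6 higher (21.4%) and 4 lower (14.3%) of 28 tested, with a median of 0.47. In photorespiration, the peroxisomal steps had 3 lower of 10 tested (30.0%) and a median of -0.50, and the 1 called higher was LOC_Os07g42430. The mitochondrial steps had 0 called in either direction of 11 tested by the main edgeR fit, by DESeq2 and by limma, and their median was 0.52. With no fold threshold 3 of them were higher, and 4 were higher and 0 lower at an unadjusted p under 0.05 in edgeR. The chloroplast steps had 0 called in either direction of 3 tested, with a median of 0.62. With no filter and with the replicate block, edgeR called the mitochondrial model LOC_Os04g53230 and the chloroplast model LOC_Os04g41340 higher. Whether these groups differ from each other was not tested.

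Levels were also summed over all models of an enzyme, in CPM (counts scaled to library size, with TMM factors). The sum does not depend on how the counted reads were divided between near-identical copies. It counts reads and not transcripts, and any reads left uncounted because they fit several copies are missing from it. The 40 Calvin cycle models summed to 9525 and 14045 CPM in mre11 and to 9559.9 and 12582 CPM in WT, and the genotypes overlapped. The 27 photorespiration models summed to 3457 and 4739 CPM in mre11, below 4922 and 6476 CPM in WT, a 1.39-fold lower mean. The log2 ratio of this sum, -0.48, was -0.20 when deposited RPKM values were summed in place of CPM and -0.26 without WT replicate 2. The deficit was in the peroxisomal steps, whose 11 models summed to 1506 and 2188 CPM in mre11, against 3287 and 4018 CPM in WT, a 1.98-fold lower mean. The 12 mitochondrial models summed to 1719 and 2204 CPM in mre11 and to 1454 and 2201 CPM in WT, and the 4 chloroplast models to 232 and 347 CPM in mre11 and 181 and 257 CPM in WT, both with overlapping genotypes. Sums were described and not tested.

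**Figure D2:**
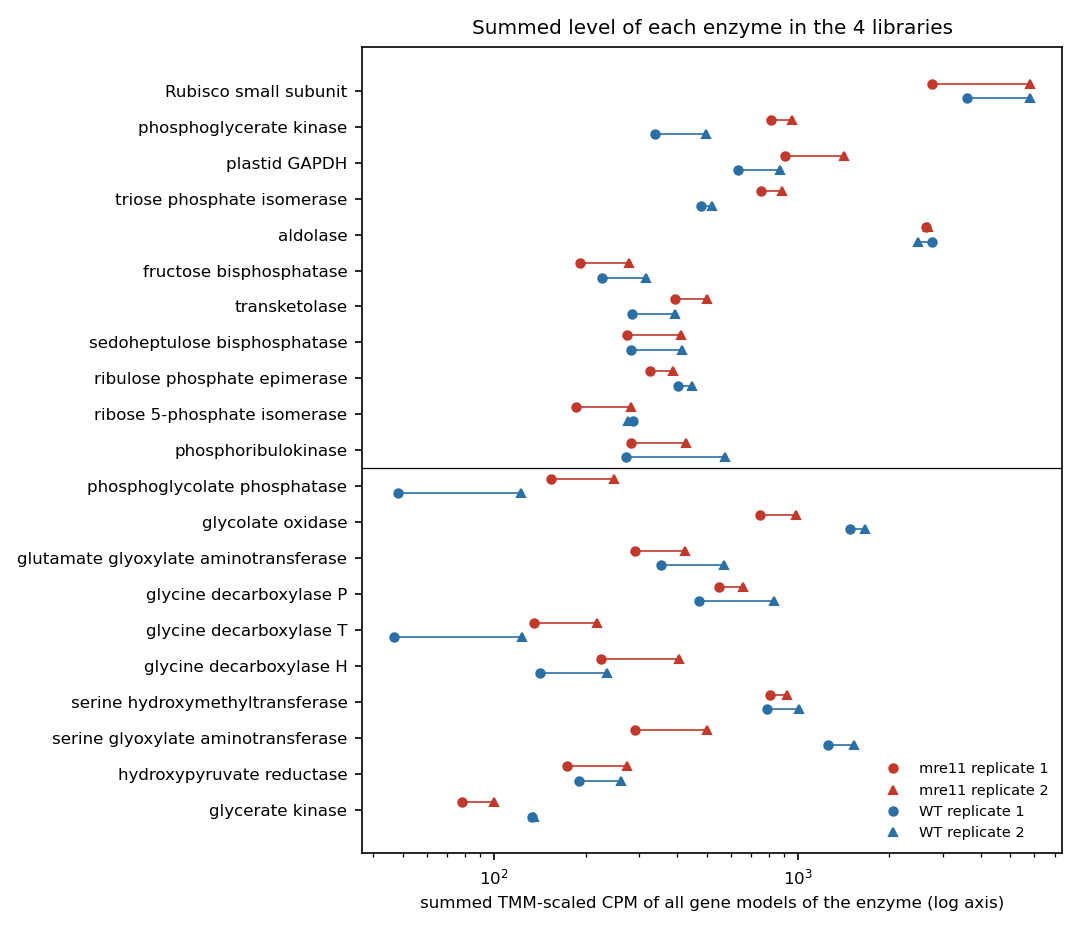
Summed TMM-scaled CPM (log axis) of all gene models of each enzyme in the 4 libraries, with mre11 drawn above WT, replicate 1 as circles and replicate 2 as triangles; the line joins the 2 libraries of a genotype. Serine glyoxylate aminotransferase and glycolate oxidase lie lower in both mre11 libraries, phosphoglycerate kinase and triose phosphate isomerase higher, and the Rubisco small subunit, aldolase and sedoheptulose bisphosphatase overlap.

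The small subunit of Rubisco, which joins the plastid-encoded large subunit in the holoenzyme, had 4 models. In deposited RPKM, which divides reads by a length that can differ from the listed gene length, 2 of them were at the top of the members in both genotypes: LOC_Os12g19381 had a mean deposited RPKM of 1839 in mre11 and 1746 in WT, and LOC_Os12g17600 had 818 in mre11 and 899 in WT. In CPM, LOC_Os12g19381 had 1259 and 2653 in mre11, against 1416 and 2684 in WT, a log2 fold change of -0.07 ± 0.43 (SE). The spread between the 2 libraries of a genotype was wider than the difference between genotypes. LOC_Os12g17600 had 1049.8 and 2433 CPM in mre11 and 1835 and 2394 CPM in WT (-0.28 ± 0.39). Its log2 fold change ran from -1.02, a call as lower, without mre11 replicate 2 to 0.21 without mre11 replicate 1. LOC_Os12g19470 had 371 and 665 CPM in mre11 and 326 and 699 CPM in WT (0.01 ± 0.41). The fourth model behaved differently: LOC_Os02g05830 had 73.8 and 58.0 CPM in mre11, against 16.5 and 18.8 CPM in WT, and was called higher (3.74-fold, 1.90 ± 0.18, edgeR adjusted p = 0.00150). It took few of the reads of the enzyme, and the 4 models together held 0.300% and 0.595% of all counts in mre11 and 0.335% and 0.553% in WT. The Wilson 95% interval of this share, which covers counting error only, ran from 0.298% to 0.302% in mre11 replicate 1 and from 0.332% to 0.339% in WT replicate 1. In replicate 2 the order was reversed, with 0.592% to 0.599% in mre11 and 0.550% to 0.557% in WT.

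Phosphoribulokinase, which regenerates the CO2 acceptor, and sedoheptulose bisphosphatase, which commits carbon to that regeneration, are specific to the cycle. LOC_Os02g47020, the phosphoribulokinase model with reads, had 282 and 429 CPM in mre11 and 272 and 576 CPM in WT (-0.26 ± 0.37, edgeR adjusted p = 0.615), while LOC_Os04g50880 had 0 counts in each of the 4 libraries. The sedoheptulose bisphosphatase model LOC_Os04g16680 had 273 and 412 CPM in mre11 and 282 and 414 CPM in WT (-0.02 ± 0.27, adjusted p = 0.948). The genotypes overlapped at both models. Plastid GAPDH, the NADPH-dependent reduction step, had 2 models. LOC_Os03g03720 had 510.5 and 739 CPM in mre11 and 509 and 574 CPM in WT (0.21 ± 0.22), overlapping between genotypes. LOC_Os04g38600 had 393 and 680 CPM in mre11, both above the 127 and 297 CPM in WT, and at 1.34 ± 0.43 it missed the threshold (adjusted p = 0.0506). It was called higher with upper-quartile scaling, library size alone, no filter, thinned counts and limma on RPKM, but not with DESeq2, and ran from 0.84 to 2.07 as each library was left out.

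Among the enzymes that the Calvin cycle shares with glycolysis, phosphoglycerate kinase was called higher in 1 of 5 models. All 5 had log2 fold changes above 0, from 0.56 to 1.65. LOC_Os02g07260 had 436 and 418 CPM in mre11, against 139 and 132 CPM in WT (3.15-fold, 1.65 ± 0.14, edgeR adjusted p = 0.00134). The annotation gives this model no plastid term of the Gene Ontology (GO), whereas it gives one to LOC_Os05g41640, the model with the more reads in WT, which had 312 and 496 CPM in mre11 and 168 and 335 CPM in WT (0.68 ± 0.36, adjusted p = 0.179). The 5 models together summed to 818 and 956 CPM in mre11 and 338 and 499.7 CPM in WT, a 2.12-fold higher mean.

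Triose phosphate isomerase, which interconverts the 2 triose phosphates, had calls in opposite directions. LOC_Os01g62420 had 102 and 101 CPM in mre11, against 18.1 and 28.1 CPM in WT, and was called higher (4.40-fold, 2.14 ± 0.22, edgeR adjusted p = 0.00166). LOC_Os03g54240 had 13.1 and 11.1 CPM in mre11, against 41.2 and 35.4 CPM in WT, and was called lower (-1.66 ± 0.18, adjusted p = 0.00191). The most abundant model, LOC_Os01g05490, had 440.3 and 503 CPM in mre11 and 276 and 276 CPM in WT, which passed the test at 1.71-fold, short of the 2-fold threshold (adjusted p = 0.0112). Its log2 fold change ran from 0.67 to 0.87 as each library was left out. Models LOC_Os04g38990 and LOC_Os08g33030 had 0 counts in every library, and the 6 models summed to 756 and 885 CPM in mre11, above 479 and 520.1 CPM in WT.

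Aldolase, which condenses triose phosphates in the Calvin cycle and splits fructose 1,6-bisphosphate in glycolysis, showed a shift among its models with little change in the total. The 9 models summed to 2642 and 2685 CPM in mre11 and to 2762 and 2475 CPM in WT. LOC_Os05g33380 had 466 and 456 CPM in mre11, against 115 and 100.3 CPM in WT (4.29-fold higher, 2.10 ± 0.15, edgeR adjusted p = 0.00106). LOC_Os01g02880 had 84.3 and 92.1 CPM in mre11, against 36.2 and 35.6 CPM in WT (1.30 ± 0.13, adjusted p = 0.00164). Both were higher in each mre11 library than in either WT library, with replicates close to each other. LOC_Os01g67860 had 751 and 495 CPM in mre11, against 266 and 238 CPM in WT (1.31 ± 0.23, adjusted p = 0.00752). This call was lost without mre11 replicate 1 and without either WT replicate, with log2 fold changes from 0.98 to 1.57 as each library was left out. In the other direction, LOC_Os12g07210 had 19.5 and 28.1 CPM in mre11, against 57.1 and 69.4 CPM in WT, and was called lower (-1.41 ± 0.21, adjusted p = 0.00481).

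The aldolase model with the most reads, LOC_Os11g07020, had 1201 and 1443 CPM in mre11, against 2147 and 1822 CPM in WT, and did not pass the test (-0.59 ± 0.20, edgeR adjusted p = 0.0628). Its share of aldolase counts was 45.5% and 53.7% in mre11, against 77.8% and 73.6% in WT. The Wilson 95% interval of this share, which covers counting error only, ran from 45.0% to 45.9% in mre11 replicate 1 and from 77.3% to 78.2% in WT replicate 1. LOC_Os05g33380 took 17.6% and 17.0% of aldolase counts in mre11, against 4.15% and 4.05% in WT, and LOC_Os01g67860 took 28.4% and 18.4% in mre11, against 9.63% in each WT library. Of these models, the annotation gives a plastid GO term to LOC_Os11g07020, LOC_Os01g67860 and LOC_Os12g07210, and GO terms without a plastid term to LOC_Os05g33380.

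The pentose phosphate steps of the cycle gave a similar picture for ribose 5-phosphate isomerase. LOC_Os04g24140 fell to 58.4 and 68.0 CPM in mre11, against 213 and 167 CPM in WT (3.01-fold lower, -1.59 ± 0.17, edgeR adjusted p = 0.00195). LOC_Os07g08030 had 100.3 and 184 CPM in mre11, against 49.1 and 77.3 CPM in WT, and was called higher (1.17 ± 0.33, adjusted p = 0.0344). The second call rests on the replicates more than the first: it was lost without mre11 replicate 2 and without either WT replicate, with log2 fold changes from 0.65 to 1.55. LOC_Os04g24140 held 31.3% and 24.1% of the counts of the enzyme in mre11, against 74.3% and 60.8% in WT, and LOC_Os07g08030 held 53.7% and 65.3% in mre11, against 17.2% and 28.1% in WT. The enzyme as a whole summed to 187 and 282 CPM in mre11 and 286 and 275 CPM in WT, overlapping between genotypes.

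**Figure D3:**
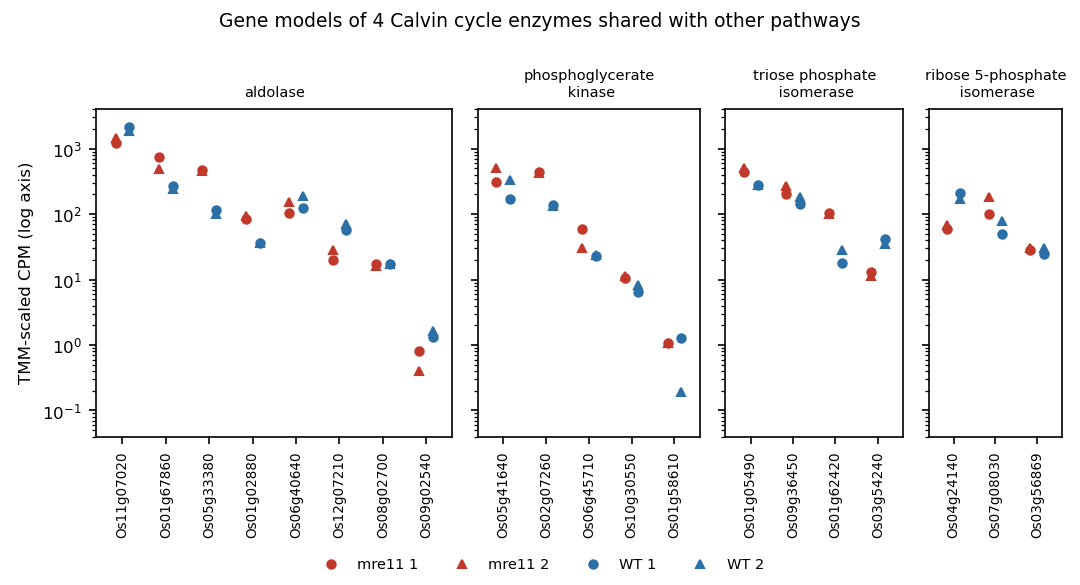
TMM-scaled CPM (log axis) of the tested gene models of aldolase, phosphoglycerate kinase, triose phosphate isomerase and ribose 5-phosphate isomerase in each library, mre11 left of WT at each model. In aldolase the most abundant model is lower in both mre11 libraries while 3 others are higher, and the 2 most abundant ribose 5-phosphate isomerase models change order between the genotypes.

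Transketolase, which moves 2-carbon units between sugar phosphates, was not called in either of its models. LOC_Os06g04270 had 385 and 493 CPM in mre11 and 278 and 385 CPM in WT (0.40 ± 0.22, edgeR adjusted p = 0.188). Ribulose phosphate epimerase was not called either, and LOC_Os03g07300 had 266 and 334 CPM in mre11 and 342 and 391 CPM in WT (-0.29 ± 0.18, adjusted p = 0.237). Fructose bisphosphatase, which acts in the Calvin cycle and in sucrose synthesis, was called lower in 1 of 4 models. LOC_Os05g36270 had 26.3 and 24.7 CPM in mre11, against 75.6 and 65.2 CPM in WT (-1.47 ± 0.15, adjusted p = 0.00162). This model carries no plastid GO term. LOC_Os03g16050, which carries one and has the most reads of the 4, had 122 and 186 CPM in mre11 and 129 and 201 CPM in WT (-0.10 ± 0.28). LOC_Os06g45370, which also carries one, had 12.8 and 21.6 CPM in mre11, both above the 3.44 and 9.29 CPM in WT. It missed the threshold (1.41 ± 0.47, edgeR adjusted p = 0.0569) but was called higher with DESeq2 and with some other settings.

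In photorespiration, the peroxisomal steps held the members called lower. Serine glyoxylate aminotransferase, which passes the amino group of serine to glyoxylate and yields hydroxypyruvate and glycine, was represented by LOC_Os08g39300 with 292 and 502 CPM in mre11, against 1257 and 1529 CPM in WT. Both mre11 libraries were far below both WT libraries, and the model was called lower (3.51-fold, -1.81 ± 0.29, edgeR adjusted p = 0.00558). In deposited RPKM, whose implied length for this model exceeds the listed gene length, it was at rank 26 among the 67 members in mre11, with a mean deposited RPKM of 118, and at rank 4 in WT, with 372. The call was kept as each library was left out, with log2 fold changes from -2.26 to -1.46. The other model of this KO, LOC_Os08g15910, had 0 counts throughout.

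Glycolate oxidase, which turns glycolate into glyoxylate with release of hydrogen peroxide, had 7 models, of which 2 were called lower and 1 higher. LOC_Os07g05820 had 162 and 222 CPM in mre11, against 482 and 546 CPM in WT (2.67-fold lower, -1.42 ± 0.20, edgeR adjusted p = 0.00387). LOC_Os04g53214 had 31.6 and 25.9 CPM in mre11, against 94.5 and 88.2 CPM in WT (3.17-fold lower, -1.67 ± 0.15, adjusted p = 0.00147). Both fell in each mre11 library by more than the replicates of a genotype differed. LOC_Os08g09860 was 1.93-fold lower, with 115 and 115 CPM in mre11 and 233 and 211 CPM in WT, and passed the test without reaching 2-fold (adjusted p = 0.00416). The model with the most reads, LOC_Os03g57220, had 316 and 494 CPM in mre11 and 554 and 693 CPM in WT and did not pass (-0.62 ± 0.25, adjusted p = 0.0943). The 7 models summed to 750.2 and 988 CPM in mre11, against 1486 and 1656 CPM in WT, a 1.81-fold lower mean.

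At the low end of the family, LOC_Os07g42430 had 49 and 35 counts in mre11 and 0 and 0 counts in WT. Against a floor of 3 counts per WT library, this made it at least 9.83-fold higher in mre11. Its call is not counted as support, since it was tested only through its mre11 reads. It adjoins LOC_Os07g42440, another glycolate oxidase model, in the order of the annotation, and LOC_Os04g53210 and LOC_Os04g53214 adjoin each other likewise. Whether HTSeq was run with strand information is not given in the sources used here. Reads of adjoining or near-identical models may have been divided between them or left uncounted.

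The other peroxisomal enzymes were not called. Glutamate glyoxylate aminotransferase, which makes glycine from glyoxylate, had 290.1 and 424 CPM in mre11 and 355 and 572 CPM in WT at LOC_Os07g01760 (-0.38 ± 0.28, edgeR adjusted p = 0.330). Hydroxypyruvate reductase, which makes glycerate, had 174 and 273 CPM in mre11 and 189.7 and 261 CPM in WT at LOC_Os02g01150 (-0.01 ± 0.26, adjusted p = 0.970). The genotypes overlapped at both.

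**Figure D4:**
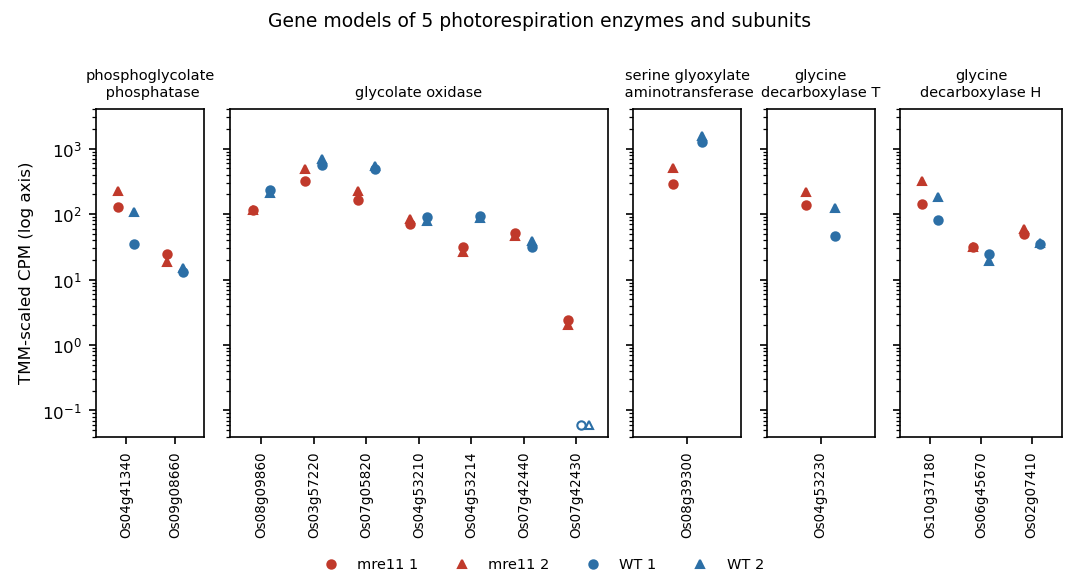
TMM-scaled CPM (log axis) of the tested gene models of phosphoglycolate phosphatase, glycolate oxidase, serine glyoxylate aminotransferase and the T and H proteins of glycine decarboxylase in each library, mre11 left of WT at each model; open symbols at the lower edge stand for 0 counts. The serine glyoxylate aminotransferase model and 3 glycolate oxidase models passed the test as lower in mre11, whereas phosphoglycolate phosphatase and the T protein are higher in both mre11 libraries without passing it.

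In the mitochondrion, glycine decarboxylase and serine hydroxymethyltransferase convert glycine to serine with release of CO2 and ammonia. The P protein, which decarboxylates glycine, had 326 and 354 CPM in mre11 and 299 and 398 CPM in WT at LOC_Os01g51410 (-0.03 ± 0.19). The T protein, which hands the methylene group on to tetrahydrofolate, had 135 and 218 CPM in mre11, against 46.8 and 123 CPM in WT, at LOC_Os04g53230 and did not pass (1.05 ± 0.45, edgeR adjusted p = 0.109). The H protein, which carries the intermediate between the subunits, had 144 and 314 CPM in mre11 and 81.6 and 179.6 CPM in WT at LOC_Os10g37180 (0.81 ± 0.46, adjusted p = 0.208). On the log2 scale, the 2 WT libraries differed from each other by 1.40 at this T model and 1.14 at this H model, more than the genotypes did. As each library was left out, the T model ran from 0.51 to 1.91, with a call as higher without WT replicate 2, and this H model from 0.13 to 1.48, with a call as higher without mre11 replicate 1. Another H model, LOC_Os02g07410, had 49.99 and 60.1 CPM in mre11, against 35.2 and 35.8 CPM in WT, and passed the test at 1.55-fold (adjusted p = 0.0198). Its log2 fold change ran from 0.49 to 0.77 as each library was left out. A low H protein model, LOC_Os02g07330, had 4 and 7 counts in mre11 and 0 and 0 counts in WT, at least 1.33-fold higher against the floor of 3 counts, and was too low to be tested.

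Serine hydroxymethyltransferase had 5 models, and their log2 fold changes ran from -0.49 to 0.84. LOC_Os03g52840, with the most reads, had 418 and 486 CPM in mre11 and 534 and 739 CPM in WT (-0.49 ± 0.21, edgeR adjusted p = 0.107). LOC_Os11g26860, with 269 and 318 CPM in mre11, against 163 and 166 CPM in WT, passed the test at 1.79-fold (adjusted p = 0.00821). LOC_Os12g22030, with 57.8 and 62.4 CPM in mre11, against 36.1 and 39.7 CPM in WT, passed at 1.58-fold (edgeR adjusted p = 0.0127). The annotation gives LOC_Os12g22030 a plastid GO term, although its KO set it among the mitochondrial steps. The sum of the 5 was 809.5 and 923 CPM in mre11 and 794 and 1010.2 CPM in WT, which overlapped.

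The pathway begins and ends in the chloroplast. Phosphoglycolate phosphatase, its first enzyme, had 129 and 228 CPM in mre11, against 35.4 and 107 CPM in WT, at LOC_Os04g41340 and did not pass the test (1.32 ± 0.51, edgeR adjusted p = 0.0845). Its log2 fold change ran from 0.73 to 2.33 as each library was left out, and it was called higher without mre11 replicate 1 and without WT replicate 2. Glycerate kinase, which returns 3-phosphoglycerate to the Calvin cycle, had 78.2 and 100.2 CPM in mre11, against 133 and 135 CPM in WT, at LOC_Os01g48990. It passed as 1.50-fold lower, short of 2-fold (-0.59 ± 0.16, edgeR adjusted p = 0.0309). It did not pass in edgeR with upper-quartile scaling (adjusted p = 0.0559) or library size alone (0.0642). Nor did it pass with limma on log2(RPKM + 1) (adjusted p = 0.0625) or log2(RPKM + 0.1) (0.0657). Its log2 fold change ran from -0.78 to -0.41 as each library was left out.

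Many members differed between the 2 replicates in the same direction in both genotypes. Of 59 tested members with reads in all libraries, 35 (59.3%) were higher in replicate 2 than in replicate 1 in both genotypes, against 24.1% of all tested genes. The differences between the replicates correlated across these members with r = 0.51 between mre11 and WT, as a description over genes that share libraries. Over all tested genes r was 0.0072. Among 30 tested genes for light-harvesting and photosystem proteins, used as markers of green tissue, 23 (76.7%) were higher in replicate 2 in both genotypes. Across these 30 genes r was lower, at 0.16. These green tissue genes summed to 27482 and 43503 CPM in mre11 and 18960.3 and 27822 CPM in WT, which overlapped. Of them, 5 were called higher (16.7%) and 2 lower (6.67%), beside 12.0% and 9.31% of all tested genes, with a median log2 fold change of 0.61. Their part in the members' values was not tested.

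**Figure D5:**
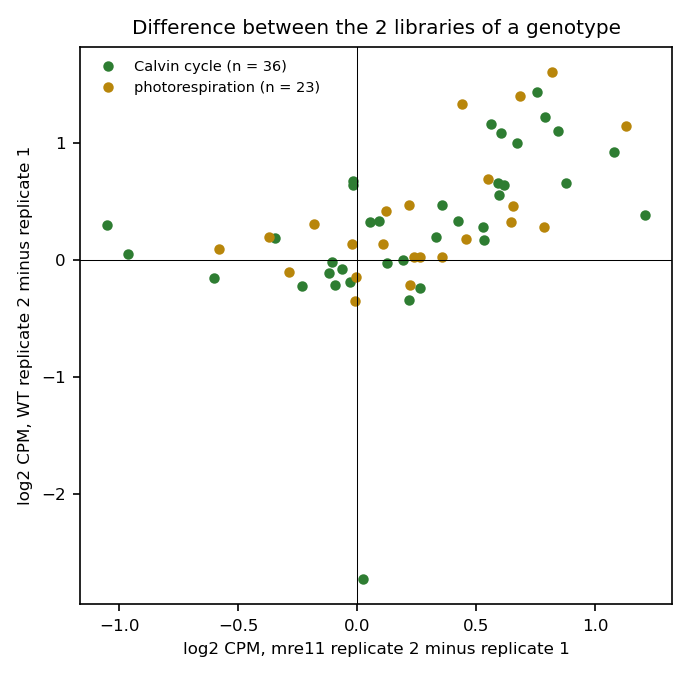
Log2 CPM of replicate 2 minus replicate 1 in mre11 (horizontal axis) and in WT (vertical axis) for the 36 Calvin cycle and 23 photorespiration members with reads in all libraries. To the upper right of both zero lines lie the 35 members that were higher in replicate 2 of both genotypes.

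Enzymes next to the 2 pathways gave the surroundings of these values. Of 57 tested models for glycolytic enzymes outside the members, 19 were called higher (33.3%) and 2 lower (3.51%), with a median log2 fold change of 0.54, beside 12.0% and 9.31% of all tested genes. Their summed level was 6416 and 6207 CPM in mre11, against 3218 and 3312 CPM in WT. Of 33 tested models for enzymes around the pathways, such as catalase, carbonic anhydrase, glutamine synthetase and malate dehydrogenase, 8 were called higher (24.2%) and 3 lower (9.09%). Of 6 models with the KO of the Rubisco large subunit, 2 were tested, and both were called lower at low levels. LOC_Os01g58020 had 0.97 and 0.40 CPM in mre11, against 12.3 and 5.47 CPM in WT (-3.65 ± 0.59, edgeR adjusted p = 0.00559). LOC_Os10g21268 had 0.19 and 0.23 CPM in mre11, against 7.31 and 1.21 CPM in WT (-4.28 ± 0.99, edgeR adjusted p = 0.0180). By their locus identifiers both lie on nuclear chromosomes, whereas the large subunit of the enzyme is plastid-encoded. Their values are therefore not taken as those of the plastid gene. Malate dehydrogenase, which moves reducing equivalents between compartments, was called higher in 5 of 9 tested models. Glutamine synthetase reassimilates the ammonia set free by photorespiration, but its KO does not tell which model does so. It was called higher in 2 of 4 models. LOC_Os02g50240 had 386 and 389 CPM in mre11, against 132 and 137 CPM in WT (1.53 ± 0.14, edgeR adjusted p = 0.00147). The other, LOC_Os03g50490, had 2.03 and 2.16 CPM in mre11, against 0.17 and 0.70 CPM in WT. LOC_Os04g56400 had 355 and 563 CPM in mre11 and 286 and 539 CPM in WT. Its genotypes overlapped, and it was not called (0.16 ± 0.34, edgeR adjusted p = 0.748). Of 14 tested models for C4 cycle enzymes, 2 were called higher (14.3%) and 3 lower (21.4%).

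Markers of other cell types were set beside these values, again with 12.0% higher and 9.31% lower over all tested genes. The 7 MCM genes of dividing cells summed to 246 and 212 CPM in mre11, against 90.2 and 86.1 CPM in WT, and 5 of 7 were called higher. The root-rich families summed to 3533 and 4294 CPM in mre11, below 5448 and 4824 CPM in WT, although 24 (22.2%) were called higher and 13 lower of 108 tested. The alpha-amylase genes of germinating seed were at 43.5 and 69.3 CPM in mre11 and 60.6 and 55.9 CPM in WT, which overlapped. Whether the make-up of the seedlings contributed to the members' values was not tested.

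The plastid GO terms of the annotation were also counted, though they do not mark the place of the product. Of 61 members with any GO term, 37 carried a plastid term. These include peroxisomal and mitochondrial models, such as LOC_Os04g53214, called lower, and LOC_Os04g53230. The plastid GAPDH model LOC_Os03g03720 and the glycerate kinase model LOC_Os01g48990 carry none. Among the 33 tested members with a plastid term, 4 were called higher (12.1%) and 2 lower (6.06%). These shares are near the 12.0% and 9.31% of all tested genes. The median log2 fold change of these members was 0.01. Among the other members with a GO term, 3 were called higher and 3 lower (13.6% each) of 22, with a median of 0.42. The 3 called higher include LOC_Os07g42430, which was tested only through its mre11 reads and is not counted as support. Of the 6 members without a GO term, 5 were tested, with 1 called higher and 2 lower. They include the serine glyoxylate aminotransferase model LOC_Os08g39300 and the glycolate oxidase model LOC_Os07g05820, both called lower.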

How the data were processed

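RNA from 2 mre11 and 2 WT samples was sequenced on an Illumina HiSeq instrument. The authors aligned the reads to the rice pseudomolecules (version 7.0), and the deposited counts per gene, from HTSeq 0.6.1, are not normalized. The deposited RPKM values were made by the authors from counts, a gene length and the library total. The length that RPKM implies differs from the listed gene length and was above the listed length in 9 of 57 members, so levels between genes are approximate. The authors' own test used DESeq2 1.6.3 (both versions per the submitters' processing notes). The deposited annotation gave KO and GO terms.

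Genotypes were compared by the quasi-likelihood test of edgeR 4.0.16 under R 4.3.3, by genotype alone, after filterByExpr had removed low genes and TMM factors had been set. Benjamini-Hochberg adjustment covered 24470 tested genes, and the common dispersion was 0.0384. Called genes had an adjusted p under 0.05 and at least a 2-fold difference. Log2 fold changes are mre11 over WT, and errors are standard errors. The edgeR script was tested on simulated data. Alternatives were DESeq2 1.42.0, other scalings, no filter, thinned counts, other thresholds, limma 3.58.1 on log2(RPKM + 1) and log2(RPKM + 0.1), a replicate block, and each library left out.

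The text names, for each KO, the member with the highest mean RPKM, every called member, and any member with 3 counts or fewer in every library of 1 genotype and more than 3 in each of the other. A few further members and list genes are given beside these and were chosen after their values were seen. The members, gene lists and tests were chosen with earlier results of these data known. P-values measure the spread between pools of plants. Intervals cover counting error only. Gene coordinates and sequences were not used here.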

Additional observations from a re-analysis of the deposited data

How the results depend on the processing

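All 7 members called lower stayed called under every alternative that kept the 4 libraries, and all 8 called higher did so at the same thresholds. The 8 include LOC_Os07g42430, which has 0 counts in WT and was tested only through its mre11 reads. That its call was kept is not counted as support. Leaving out 1 library removed LOC_Os01g67860 or LOC_Os07g08030 or both, as given above. At an adjusted p under 0.01, LOC_Os07g08030 was also lost. Photorespiration members called higher numbered 3 with no filter, 3 with the replicate block, 4 with no fold threshold and 1 to 3 as each library was left out, and 5 were lower with no fold threshold. The replicate block and the fit with no filter each added LOC_Os04g38600, LOC_Os06g45370, LOC_Os04g41340 and LOC_Os04g53230 to the members called higher. LOC_Os04g38600 was also called with upper-quartile scaling, library size alone, both limma fits and thinned counts, and LOC_Os06g45370 with DESeq2, library size alone and both limma fits. Over all genes the deviations of same-numbered libraries did not correlate between the genotypes (-0.0065). The replicate differences of the tested members did, with r = 0.51 as given above. The median of photorespiration members ran from -0.14 to 0.24 as each library was left out. Over all genes, calls higher numbered 4594 with no fold threshold, 1614 at 0.01 and 1668 to 2626 without 1 library, and calls lower 4483, 1493 and 1493 to 2275, with 1336 by limma on log2(RPKM + 1). The median of all genes was 0.0163 with DESeq2 size factors, 0.11 with upper-quartile scaling, 0.19 with library size alone, 0.0878 with no filter, 0.15 and 0.19 with limma on log2(RPKM + 1) and log2(RPKM + 0.1), and 0.0152 to 0.0507 without 1 library. Members near 0 changed sign, and of these LOC_Os12g17600 was called lower without mre11 replicate 2. With upper-quartile scaling, library size alone and the larger and smaller RPKM pseudocount, LOC_Os01g51410 was at 0.0497, 0.13, 0.14 and 0.14, LOC_Os02g01150 at 0.0717, 0.14, 0.13 and 0.13, LOC_Os04g16680 at 0.0602, 0.13, 0.13 and 0.13, and LOC_Os12g19381 at 0.0175, 0.0753, 0.0695 and 0.0695. LOC_Os03g16050 was at 0.0498 with library size alone and at 0.0644 and 0.0651 with RPKM. As each library was left out, LOC_Os01g51410 ran from -0.24 to 0.18, LOC_Os02g01150 from -0.39 to 0.28, LOC_Os02g47020 from -0.71 to 0.38, LOC_Os03g03720 from -0.0912 to 0.46, LOC_Os03g16050 from -0.45 to 0.25, LOC_Os04g16680 from -0.36 to 0.27, LOC_Os07g01760 from -0.69 to 0.00055, LOC_Os12g17600 from -1.02 to 0.21, LOC_Os12g19470 from -0.48 to 0.66 and LOC_Os12g19381 from -0.71 to 0.46. Apart from the filter, the left-out libraries and the thresholds, whose construction changes the genes, samples or limits, the cause was not tested. Where 1 library was left out, the lone library of its genotype was assumed to vary like the other genotype. Thinning every library to 12753324 counts kept all 8 higher calls, LOC_Os07g42430 among them, and all 7 lower calls. The 7 members not tested had 0 to 7 counts per library.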
